A study of Homo sapiens with 6 samples.

Results

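The TGF-beta response and collagen genes described here are ID1, SMAD7, COL5A1, COL5A2, COL4A3 and TIMP2, 6 of the 11584 genes measured. They were found through the array's probe set annotation. In the deposited table, which is part of the array, each had 1 probe set, and any other probe sets of the array for them were not read. The genes were chosen by name, with the fold changes of the knockdown and the induction on these arrays in view. Their knockdown and induction differences are therefore a description and carry no test. Expression was measured on 6 Affymetrix arrays, 2 in each of 3 groups, of the human embryonic kidney line HEK293 T-REx Flp-In. All cells carried an inducible FLAG/HA-tagged LIN28B transgene. The knockdown cells were transfected with siRNA against LIN28B with the transgene not induced, the induced mock cells were mock transfected and had the transgene switched on, and the mock cells not induced were mock transfected with the transgene off. A non-targeting siRNA is not among the groups, and the effect of transfecting siRNA and that of losing LIN28B cannot be told apart. Doxycycline, the inducing agent, was used at 250 ng/ml according to the labels' protocols, which give 15 to 20 h ahead of crosslinking and name no time for the array samples.

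Ligands of the TGF-beta family, which include the bone morphogenetic proteins (BMPs), bind serine/threonine kinase receptors that phosphorylate SMAD transcription factors. ID1 is a direct target gene of the BMP branch and encodes a dominant-negative helix-loop-helix protein, while SMAD7 is an inhibitory SMAD that is itself induced by the pathway and blocks its receptors. Collagens and their processing enzymes are among the matrix genes that TGF-beta regulates in many tissues. COL5A1 and COL5A2 encode chains of collagen V, a fibrillar collagen that sets fibril diameter. COL4A3 encodes a chain of the collagen IV network of the kidney's glomerular basement membrane, and TIMP2 encodes a secreted inhibitor of matrix metalloproteinases.

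Values are the authors' deposited log2 expression values per probe set, and a difference of 1 is a 2-fold change. The deposited table is part of the array, and 13007 of its 13008 probe sets lay above 5 on at least 2 arrays, so a gene low on all arrays was not analysed here. The array medians lay between 7.13 and 7.18. LIN28B, the target of the siRNA, read 7.51 and 7.53 on the knockdown arrays, 10.15 and 10.11 on the induced mock arrays and 10.02 and 9.85 on the mock arrays not induced. It was thus lower on both knockdown arrays than on all 4 mock arrays, at 18.7% of the level in mock cells not induced. Of 7 neuronal and adrenal HEK293 markers, the neurofilament gene NEFL, the intermediate filament gene INA and the granule protein gene CHGB were in the table. Of 5 HEK293 markers listed as simple epithelial, KRT8, KRT18, CDH2 and EPCAM were. In the knockdown against mock not induced, 2 of the first 3 passed as higher and 1 as lower, and 2 of the other 4 as higher. Of all genes 28.0% passed in this comparison (13.5% higher, 14.5% lower). Of 11 fibroblast markers, COL1A1 and ACTA2 were in the table, neither passed the test, and their log2 values summed to 13.6 to 13.7 in the knockdown, 13.3 to 13.4 in induced mock and 13.3 in mock not induced. Of 6 blood markers CD79A and HBB were in the table and neither passed, and of 6 endothelial markers 0 were. Whether the numbered arrays of a group came from separate cultures is not given in the labels, so errors and p-values cover only how these arrays vary, and that variation may be technical.

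Of the 6 genes, SMAD7, COL5A2 and TIMP2 were higher in the knockdown, and ID1, COL5A1 and COL4A3 were lower. For each of them both knockdown arrays lay outside the range of the 4 mock arrays, as did those of 53.1% of all genes (27.1% above and 26.0% below). A limma adjusted p under 0.05 against the mock cells not induced was found for all 6, and for 28.0% of all genes (13.5% higher, 14.5% lower). Against the induced mock cells it was found for all 6 too, and for 28.4% of all genes (14.0% higher, 14.5% lower). The members were chosen with these results in view, so nothing is read from these counts. Leaving out any 1 array kept the sign of every one of these differences.

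**Figure D1:**
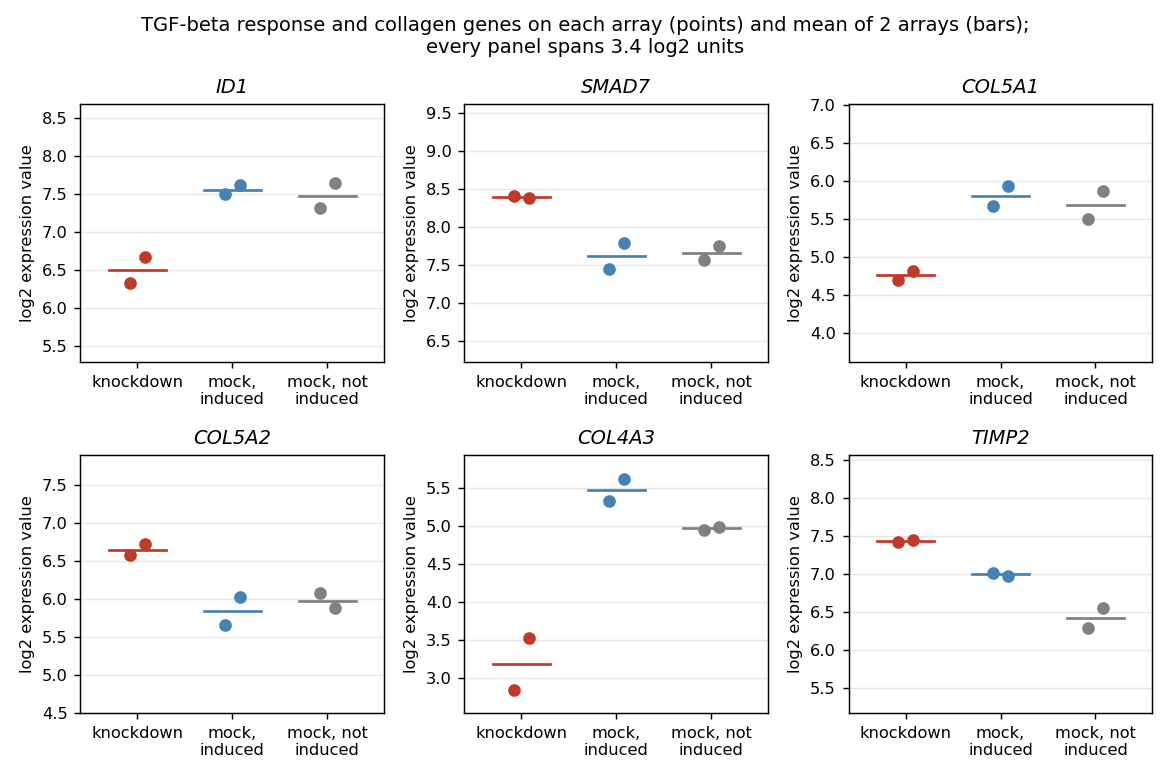
Log2 expression values of the 6 genes on the 2 knockdown arrays, the 2 induced mock arrays and the 2 mock arrays not induced; each point is an array and each bar a group mean. The knockdown points lie below all mock points for ID1, COL5A1 and COL4A3 and above them for SMAD7, COL5A2 and TIMP2.

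ID1 had log2 values of 6.34 and 6.68 on the knockdown arrays, 7.50 and 7.63 on the induced mock arrays and 7.32 and 7.65 on the mock arrays not induced. The knockdown arrays were the lowest, 0.64 below the nearest mock array, and the 2 mock groups overlapped. The log2 fold change was -0.97 (SE 0.15, 95% interval -1.31 to -0.64) against mock not induced, or 50.9% of its level, and -1.05 (SE 0.15) against induced mock. Its probe set is of the kind that several transcripts share. ID3, a close relative of ID1 with the same dominant-negative role, fell in the knockdown, with 8.57 and 8.49 on the knockdown arrays, 9.20 and 9.16 on the induced mock arrays and 8.99 and 9.13 on the mock arrays not induced (log2 fold change -0.52, SE 0.08, limma adjusted p = 0.00138). ID2 (-0.00, 95% interval -0.19 to 0.18) and ID4 (0.24, 0.01 to 0.46) did not pass, with limma adjusted p of 0.976 and 0.108. ID2, ID3 and ID4 were picked after their values were seen.

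SMAD7, the inhibitor, lay on the other side of the mock arrays. It had 8.40 and 8.38 on the knockdown arrays, 7.44 and 7.78 on the induced mock arrays and 7.56 and 7.75 on the mock arrays not induced. The knockdown arrays differed from each other by 0.02 and lay 0.60 above the highest mock array, while the mock groups overlapped. The log2 fold change was 0.74 (SE 0.12, 95% interval 0.46 to 1.01) against mock not induced, a 1.67-fold difference, and 0.78 (SE 0.12) against induced mock. ID1 and SMAD7, both known as genes that TGF-beta family signals induce, thus differed from the mock cells in opposite directions.

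The windows before the starts of both genes are shown because SMAD proteins bind the short box CAGAC. They are RefSeq promoter windows of build GRCh38.p14, which run from 250 bases before to 50 bases after a start and are written 5′ to 3′ on the gene's strand. Capitals mark CAGAC on either strand. ID1 lies at chr20:31605039-31605338 on the plus strand, and the SMAD7 window, the outermost of the 3 listed for that gene, at chr18:48950916-48951215 on the minus strand.
ID1: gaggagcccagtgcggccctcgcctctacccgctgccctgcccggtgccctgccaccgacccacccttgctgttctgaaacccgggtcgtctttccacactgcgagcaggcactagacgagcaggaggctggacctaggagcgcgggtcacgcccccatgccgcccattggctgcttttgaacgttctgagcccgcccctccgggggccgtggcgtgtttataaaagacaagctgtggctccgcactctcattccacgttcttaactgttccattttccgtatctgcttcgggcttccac
SMAD7: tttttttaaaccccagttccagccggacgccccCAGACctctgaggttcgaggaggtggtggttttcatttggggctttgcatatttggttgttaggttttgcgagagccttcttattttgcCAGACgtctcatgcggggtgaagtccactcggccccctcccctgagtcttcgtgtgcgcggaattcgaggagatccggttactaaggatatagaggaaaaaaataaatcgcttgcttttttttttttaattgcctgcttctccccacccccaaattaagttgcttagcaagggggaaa
The SMAD7 window held 2 matches, which began 217 and 128 bases before the start, and the ID1 window held 0. Of 35116 such windows, 45.3% held the box on at least 1 strand. A match is not a bound site, and the region through which BMP signals are known to induce ID1 lies farther upstream. The GC-rich motif GGCGCC, read in 19.2% of windows, occurred in neither. Of the other members, the COL5A1 and COL4A3 windows each held 0 matches of CAGAC and 1 of GGCGCC. For COL5A1 only the outermost of the 2 listed windows was searched. Of further pathway genes searched, ID3 held 1 CAGAC and 0 GGCGCC, SMAD6 held 0 of either, and BAMBI held 2 CAGAC and 3 GGCGCC. COL5A2 and TIMP2 were not matched.

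The genes of collagen V, whose common form joins COL5A1 chains with a COL5A2 chain, diverged. COL5A1 read 4.70 and 4.81 on the knockdown arrays, 5.67 and 5.93 on the induced mock arrays and 5.50 and 5.86 on the mock arrays not induced. Both knockdown values were below 5, near the low end of the scale, where the background model has most influence. They lay 0.69 below the nearest mock array. As COL5A1 read above 5 on the mock arrays only, it may be in the table through those arrays alone. Its fall, and its contrast with COL5A2, carry that limit. The log2 fold change was -0.92 (SE 0.18, 95% interval -1.33 to -0.52) against mock not induced and -1.04 (SE 0.18) against induced mock. COL5A2 had 6.58 and 6.73 on the knockdown arrays, 5.67 and 6.03 on the induced mock arrays and 6.08 and 5.89 on the mock arrays not induced. Its knockdown arrays were 0.50 above the highest mock array, with a log2 fold change of 0.67 (SE 0.16, 95% interval 0.31 to 1.03) against mock not induced and 0.80 (SE 0.16) against induced mock. The mock groups overlapped for both genes. COL5A3, the remaining collagen V chain gene, was not analysed here.

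COL4A3 differed most of the 6 genes. It read 2.85 and 3.53 on the knockdown arrays, 5.34 and 5.63 on the induced mock arrays and 4.96 and 4.99 on the mock arrays not induced. The knockdown arrays lay 1.44 below the nearest mock array, and the induced arrays were above the arrays not induced. Groups apart in the order induced mock, mock not induced, knockdown were found for 3.67% of all genes. The log2 fold change was -1.79 (SE 0.25, 95% interval -2.34 to -1.23) against mock not induced, or 29.0% of its level. Against induced mock it was -2.30 (SE 0.25). COL4A3 was among the 1.30% of genes at least 2-fold lower against mock not induced. Its values lay at the bottom of the scale, and only its 2 induced arrays read above 5. Nearly all deposited probe sets lay above 5 on at least 2 arrays. COL4A3 may therefore be in the table through the induced arrays alone, and its size against induced mock carries that limit. Its 2.85 was the lowest value of any probe set on knockdown replicate 1, and the knockdown arrays differed from each other by 0.67. The size therefore depended on them: the log2 fold change against mock not induced was -1.45 without knockdown replicate 1 and -2.12 without knockdown replicate 2.

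The partners of this chain in the glomerular network fell as well. COL4A4 had 5.14 and 5.26 on the knockdown arrays, 6.09 and 6.24 on the induced mock arrays and 6.20 and 5.95 on the mock arrays not induced (log2 difference -0.87, SE 0.15, limma adjusted p = 0.00264). COL4A5 had 5.68 and 5.81 on the knockdown arrays, 6.92 and 7.17 on the induced mock arrays and 7.11 and 6.96 on the mock arrays not induced (log2 difference -1.29, SE 0.13, limma adjusted p = 0.000189). For both genes the knockdown arrays were below all mock arrays, and both passed against induced mock too, with -0.96 and -1.30. The genes of the widespread collagen IV network did not pass: COL4A1 had 0.10 (95% interval -0.13 to 0.33, limma adjusted p = 0.523) and COL4A2 had 0.09 (-0.19 to 0.36, limma adjusted p = 0.647). COL4A6, a chain that joins COL4A5 in other basement membranes, read 6.56 and 7.11 on the knockdown arrays, 6.91 and 6.89 on the induced mock arrays and 7.22 and 6.98 on the mock arrays not induced, and did not pass (-0.27, 95% interval -0.65 to 0.12, limma adjusted p = 0.285). COL4A1, COL4A2 and COL4A6 were picked after their values were seen. Whether the changes of these chains differ from one another was not tested.

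**Figure D2:**
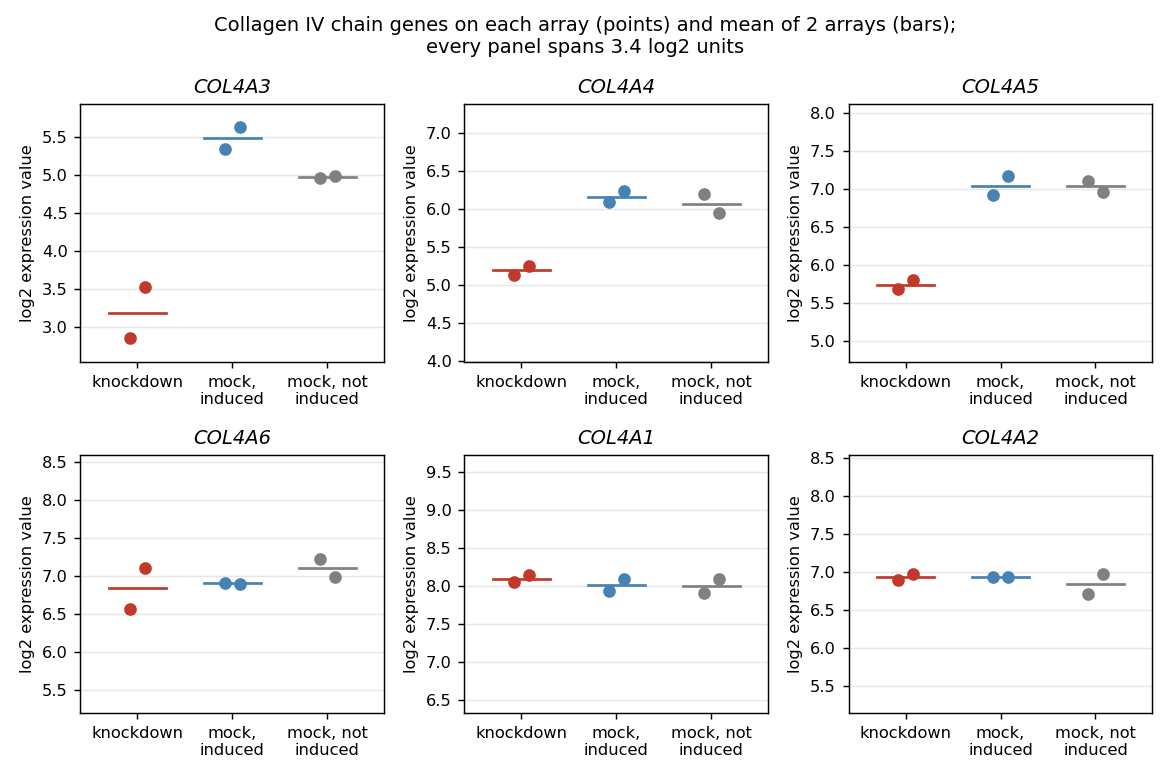
Log2 expression values of the 6 collagen IV chain genes on each array, with points for arrays and bars for group means. The knockdown points lie below all mock points for COL4A3, COL4A4 and COL4A5, and overlap the mock points for COL4A6, COL4A1 and COL4A2.

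Collagen IV genes lie in head-to-head pairs, so the windows of paired genes share DNA, and they are shown for the pairs that hold a gene lower in the knockdown. In GRCh38.p14 the listed starts of COL4A3 (plus strand) and COL4A4 (minus strand) are 419 bases apart on chromosome 2. Those of COL4A5 (plus strand) and COL4A6 (minus strand) are 380 bases apart on chromosome X. The listed start of COL4A4 is base 227164205, while its RefSeq gene span reaches base 227164488, nearer to COL4A3. The distance from that outer end, and the bases a window there would share, are not given. The windows are chr2:227164374-227164673 for COL4A3, chr2:227164156-227164455 for COL4A4, chrX:108439588-108439887 for COL4A5 and chrX:108439409-108439708 for COL4A6. Capitals mark the 82 bases that the COL4A3 and COL4A4 windows share and the 121 bases that the COL4A5 and COL4A6 windows share, each read on the gene's own strand.
COL4A3: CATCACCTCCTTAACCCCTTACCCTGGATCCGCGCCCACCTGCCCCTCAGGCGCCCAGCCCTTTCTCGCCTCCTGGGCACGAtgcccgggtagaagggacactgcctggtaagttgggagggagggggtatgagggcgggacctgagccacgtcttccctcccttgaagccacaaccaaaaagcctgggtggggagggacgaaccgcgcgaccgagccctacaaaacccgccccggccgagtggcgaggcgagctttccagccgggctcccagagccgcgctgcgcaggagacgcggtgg
COL4A4: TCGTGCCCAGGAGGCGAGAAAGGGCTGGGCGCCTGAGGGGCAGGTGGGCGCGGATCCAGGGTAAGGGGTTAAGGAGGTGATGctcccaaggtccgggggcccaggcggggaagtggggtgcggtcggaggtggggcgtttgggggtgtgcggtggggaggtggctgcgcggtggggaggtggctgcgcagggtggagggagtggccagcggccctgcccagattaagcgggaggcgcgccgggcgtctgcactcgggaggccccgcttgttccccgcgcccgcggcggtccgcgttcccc
COL4A5: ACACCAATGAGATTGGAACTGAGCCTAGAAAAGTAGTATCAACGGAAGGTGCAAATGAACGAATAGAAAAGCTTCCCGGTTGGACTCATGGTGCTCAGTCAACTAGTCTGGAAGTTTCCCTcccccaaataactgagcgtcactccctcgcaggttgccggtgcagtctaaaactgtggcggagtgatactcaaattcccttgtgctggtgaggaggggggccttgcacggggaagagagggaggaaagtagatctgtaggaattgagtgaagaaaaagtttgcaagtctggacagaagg
COL4A6: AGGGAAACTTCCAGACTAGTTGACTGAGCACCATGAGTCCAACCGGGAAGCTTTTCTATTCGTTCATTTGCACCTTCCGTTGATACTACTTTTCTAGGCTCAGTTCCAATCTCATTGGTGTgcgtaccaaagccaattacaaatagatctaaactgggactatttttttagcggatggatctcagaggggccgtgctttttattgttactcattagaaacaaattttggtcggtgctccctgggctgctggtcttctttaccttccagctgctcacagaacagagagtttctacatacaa
Both genes of the chromosome 2 pair were lower in the knockdown. Of the chromosome X pair COL4A5 fell and COL4A6 did not pass, and neither gene of the COL4A1 and COL4A2 pair on chromosome 13, with starts 127 bases apart, passed.

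TIMP2 was the only one of the 6 genes whose 3 groups were apart in the order knockdown, induced mock, mock not induced from high to low. It had 7.43 and 7.45 on the knockdown arrays, 7.02 and 6.98 on the induced mock arrays and 6.29 and 6.56 on the mock arrays not induced. Groups apart in this order were found for 3.59% of all genes. The log2 fold change was 1.02 (SE 0.12, 95% interval 0.75 to 1.29) against mock not induced and 0.44 (SE 0.12, 95% interval 0.17 to 0.72) against induced mock. It was among the 0.906% of genes at least 2-fold higher against mock not induced. Its probe set is of the kind that several transcripts share. Of the other inhibitors of metalloproteinases, TIMP1 rose by 0.35 (SE 0.06, limma adjusted p = 0.00284), and TIMP3, a form bound to the matrix, fell by 0.62 (SE 0.12, limma adjusted p = 0.00517).

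The members were chosen with their differences under induction of the tagged LIN28B in view, so these are a description and carry no test. LIN28B itself differed by 0.19 between induced mock and mock not induced (1.14-fold, limma adjusted p = 0.999), and whether its probe set reads the transgene's RNA was not tested. The difference of induced mock from mock not induced was 0.08 (95% interval -0.26 to 0.41) for ID1 and -0.05 (-0.32 to 0.23) for SMAD7. It was 0.12 (-0.29 to 0.53) for COL5A1 and -0.13 (-0.49 to 0.22) for COL5A2. Each of these signs turned when 1 array was left out: ID1 ranged from -0.09 to 0.24, SMAD7 from -0.22 to 0.12, COL5A1 from -0.06 to 0.30 and COL5A2 from -0.31 to 0.05. COL4A3 had 0.51 (95% interval -0.05 to 1.07) and TIMP2 0.58 (0.30 to 0.85), with both induced arrays above both arrays not induced. As COL4A3 read above 5 on the induced arrays only, its order here may follow from how the table was made. No gene of the 11584 passed in this comparison (0% by limma, and 344, or 2.97%, with an unadjusted p under 0.05). The 2 knockdown comparisons share the knockdown arrays, and the comparisons with mock not induced share those arrays.

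**Figure D3:**
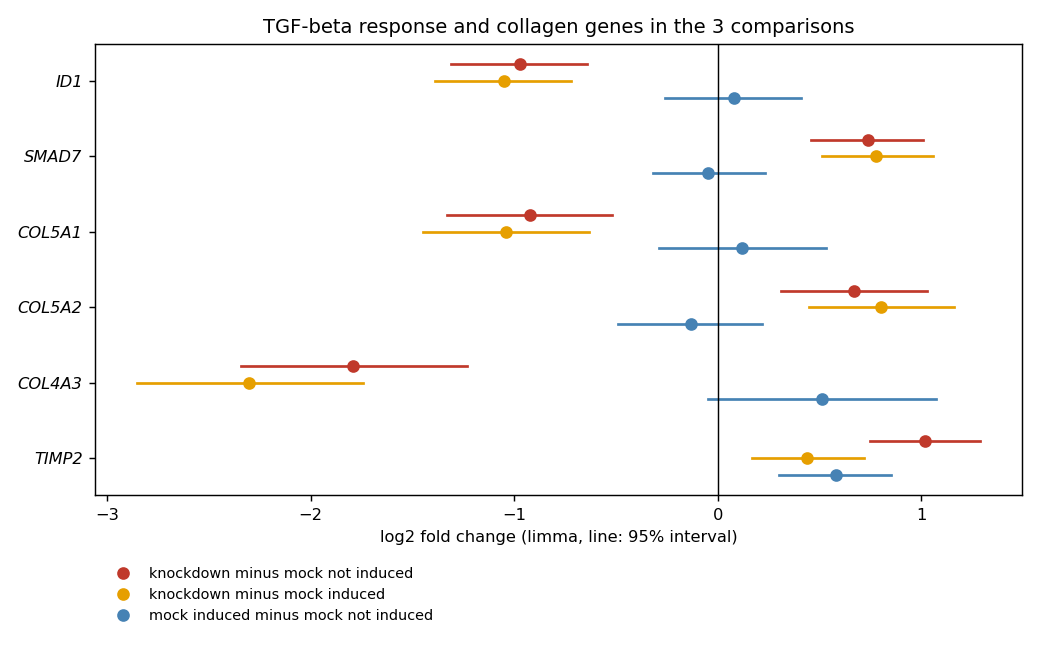
Log2 fold changes of the 6 genes with their 95% intervals from limma, for knockdown minus mock not induced, knockdown minus mock induced and mock induced minus mock not induced. Both knockdown comparisons lie on the same side of 0 for each gene, and TIMP2 has 0.44 against induced mock and 1.02 against mock not induced.

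The genes of most similar pattern were named by the root mean square difference of log2 values over the 6 arrays, each gene centred on its own mean. For ID1 these were the hexokinase gene HK2, METTL2B and PAQR8, at 0.057, 0.058 and 0.063, where the median over all genes was 0.516. The same 3 genes were nearest to COL5A1, at 0.072, 0.055 and 0.054, and ID1 and COL5A1 differed from each other by 0.078. For SMAD7 they were ATG2A, RPP25 and ZIC5 at 0.051 to 0.074, and for COL5A2 the metalloproteinase gene MMP9, the tachykinin gene TAC1 and ZDHHC12-DT at 0.072 to 0.095. SMAD7 and COL5A2 differed by 0.127. COL4A3 had CLHC1, MRPL9 and STOX1 at 0.259 to 0.268, where the median over all genes was 1.017. TIMP2 had the immunoproteasome gene PSMB9, the protease inhibitor gene SLPI and EPAS1 at 0.112 to 0.130, where the median was 0.439. These are descriptions over 6 arrays of 3 groups. MMP9 and ZIC5 read above 5 on the knockdown arrays only, and CLHC1 and STOX1 on the mock arrays only. Such genes may be in the table through those arrays alone.

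Of 261 other genes of TGF-beta and BMP signalling and of the matrix, 164 were in the table. In the knockdown against mock not induced 15 rose, 26 fell and 123 did not pass. The share called was 25.0%, against 28.0% of all genes, and the median log2 fold change was -0.02, against 0.01 over all genes. Against induced mock 17 rose and 24 fell, a share of 25.0%, against 28.4% of all genes. In both comparisons 33 of the 164 genes passed, as did 2712 of all 11584 genes. The list as a whole thus held no larger share of called genes than the table did. The count called against mock not induced depended on the knockdown arrays, with 22 called without replicate 1 and 25 without replicate 2. Against induced mock it was 22 and 21 without these arrays and 24 without induced replicate 1.

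**Figure D4:**
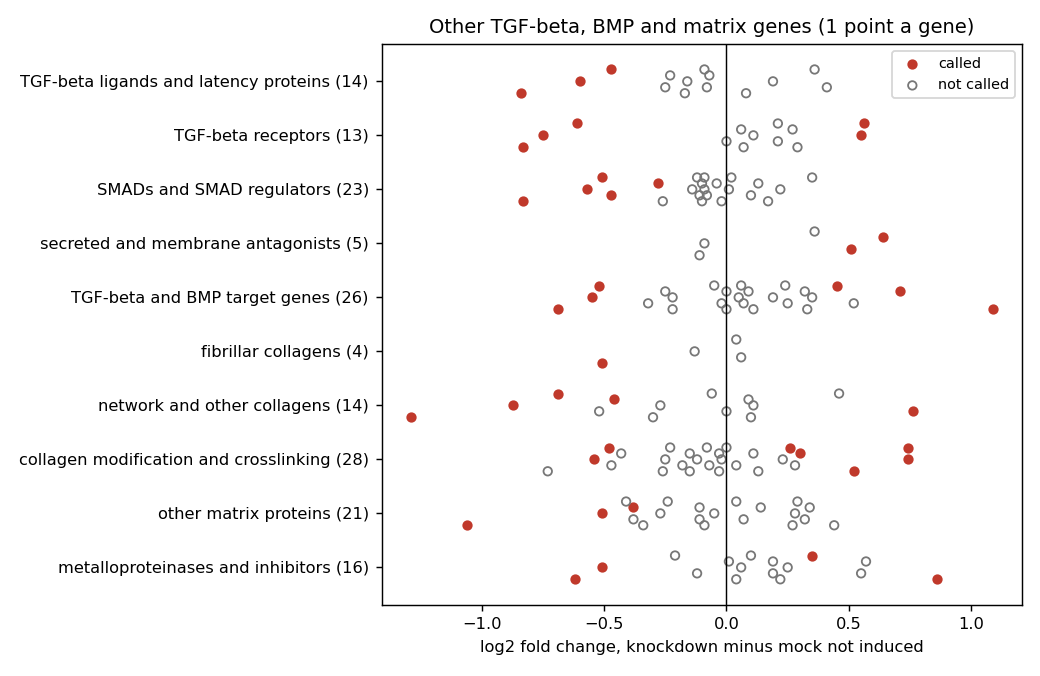
Log2 fold changes, knockdown minus mock not induced, of the 164 other pathway and matrix genes by list, with 1 point a gene, filled where the limma adjusted p is under 0.05 and the number of genes in brackets. Filled points lie on both sides of 0, and ligands, SMADs, fibrillar collagens and other matrix proteins have filled points below 0 and none above. Of all genes 13.5% passed as higher and 14.5% as lower.

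Among 14 ligand and latency genes 21.4% were called in the knockdown against mock not induced, against 28.0% of all genes (13.5% higher, 14.5% lower). In this list 3 genes fell and 0 rose. They were BMP6, with 5.47 and 5.92 on the knockdown arrays, 6.80 and 6.51 on the induced mock arrays and 6.54 and 6.52 on the mock arrays not induced (log2 fold change -0.84, SE 0.17, limma adjusted p = 0.00573), the growth factor gene GDF11 (-0.60) and BMP7, a factor of kidney development (-0.47). All 3 also passed against induced mock. TGFB1 had -0.16 and BMP4 had -0.09, and neither passed. BMP6 lost its call without knockdown replicate 1, GDF11 without knockdown replicate 2 or mock not induced replicate 2, and BMP7 without any of these 3 arrays.

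Of 13 receptor genes, 2 rose, 3 fell and 8 did not pass (38.5% called, against 28.0% of all genes). BMPR2, the type II receptor of BMPs, had 5.68 and 5.52 on the knockdown arrays, 6.39 on both induced mock arrays and 6.43 and 6.27 on the mock arrays not induced (log2 fold change -0.75, SE 0.14, limma adjusted p = 0.00314). The type I receptor genes ACVR1 (-0.83, SE 0.21) and TGFBR1 (-0.61, SE 0.14) fell too, and TGFBR3, the co-receptor betaglycan, rose by 0.56 (SE 0.10, limma adjusted p = 0.00222). RGMB, a BMP co-receptor gene, was the other that rose (0.55, SE 0.11), and is named beyond the rule for named genes. TGFBR2, the type II receptor of TGF-beta, had 0.21 and did not pass. ACVR1 did not pass against induced mock and lost its call without either knockdown array or mock not induced replicate 2, where it had -0.46. TGFBR1 lost its call without knockdown replicate 2 and had -0.40 without mock not induced replicate 1.

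Of 23 SMAD and SMAD regulator genes other than SMAD7, 5 fell and 0 rose (21.7% called, against 28.0% of all genes). SMAD9, a receptor-activated SMAD of the BMP branch, read 8.25 and 8.40 on the knockdown arrays, 9.12 and 9.10 on the induced mock arrays and 9.09 and 9.22 on the mock arrays not induced (log2 fold change -0.83, SE 0.08, limma adjusted p = 0.000166). The other inhibitory SMAD gene, SMAD6, fell by 0.47 (SE 0.12, limma adjusted p = 0.0133), while SMAD7 was higher. The corepressor gene SKI had -0.57 and the kinase gene MAP3K7, which encodes TAK1, had -0.51, and both passed. STRAP, named after its value was seen, was the fifth (-0.28, SE 0.09). SMAD1, SMAD2, SMAD3, SMAD4 and SMAD5 did not pass, with log2 fold changes between -0.26 and 0.22. SKI lost its call without either knockdown array or mock not induced replicate 2, where it had -0.34, and also without an intensity trend. MAP3K7 lost its call without either knockdown array or mock not induced replicate 1, and SMAD6 without knockdown replicate 1.

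Only 5 genes of secreted and membrane antagonists were in the table, of which 2 rose (40.0% called, against 28.0% of all genes). BAMBI, a pseudoreceptor that blocks TGF-beta family receptors, had 9.77 and 9.73 on the knockdown arrays, 9.07 and 9.20 on the induced mock arrays and 9.15 and 9.09 on the mock arrays not induced (log2 fold change 0.64, SE 0.07, limma adjusted p = 0.000326). FSTL1, a secreted follistatin-like protein gene, had 0.51 and passed against mock not induced, and had 0.23 against induced mock, where it did not. FSTL1 lost its call without either knockdown array and had 0.33 without mock not induced replicate 2.

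**Figure D5:**
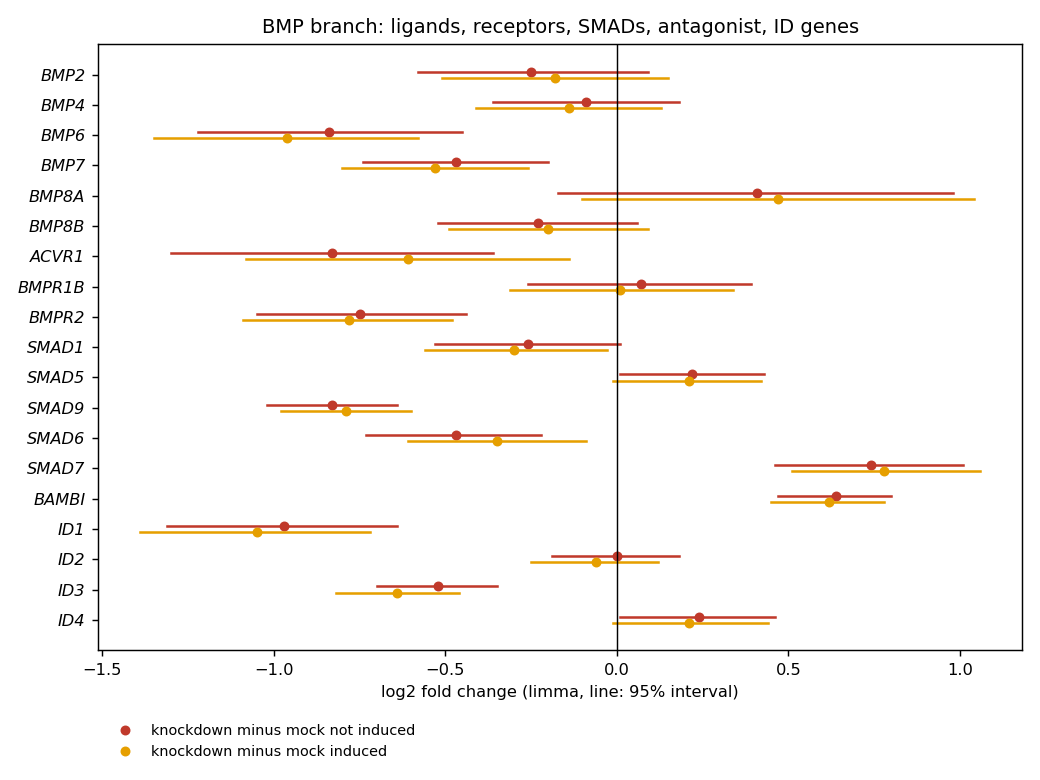
Log2 fold changes with 95% intervals (limma) of BMP ligands, receptors, SMADs, the antagonist BAMBI and the ID genes, for knockdown minus mock not induced and knockdown minus mock induced. BMP6, BMP7, ACVR1, BMPR2, SMAD9, SMAD6, ID1 and ID3 lie below 0 with both intervals, and SMAD7 and BAMBI lie above 0 with both. ACVR1 did not pass against induced mock after adjustment. BMP2, BMP4, BMP8A, BMP8B, BMPR1B, SMAD1, SMAD5, ID2 and ID4 have an interval that spans 0 in either or both comparisons. The co-receptor gene RGMB, which rose, is not shown.

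Of 26 target genes, 3 rose, 3 fell and 20 did not pass (23.1% called, against 28.0% of all genes). TGFB1I1, which encodes the focal adhesion protein Hic-5, had 6.35 and 6.56 on the knockdown arrays, 5.57 and 5.83 on the induced mock arrays and 5.28 and 5.45 on the mock arrays not induced (log2 fold change 1.09, SE 0.16, limma adjusted p = 0.00109). The integrin gene ITGAV, whose product helps release latent TGF-beta, rose by 0.71 (SE 0.09), and the tropomyosin gene TPM1, named after its value was seen, by 0.45 (SE 0.07). The Notch and BMP target HEY1 fell by 0.55 (SE 0.07, limma adjusted p = 0.000374), and CDKN2B, a cell cycle inhibitor that TGF-beta induces, had -0.69 (SE 0.22, limma adjusted p = 0.0421). CDKN2B lost its call without either knockdown array, with quantile normalization and without an intensity trend. It also lost it without mock not induced replicate 2, where it had -0.32, and had -1.05 without replicate 1.

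Of 4 other fibrillar collagen genes, COL27A1 fell (-0.51, SE 0.15, limma adjusted p = 0.0352) and COL1A1 (0.04), COL2A1 (-0.13) and COL11A2 (0.06) did not pass. The share called was 25.0%, against 28.0% of all genes. Of 14 network and other collagen genes, 1 rose and 4 fell (35.7% called). Beside COL4A4 and COL4A5, COL6A1 had -0.46 (SE 0.15, named after its value was seen), COL21A1 had -0.69 (SE 0.17) and COL14A1 had 0.76 (SE 0.24), and for these 3 genes the knockdown arrays overlapped the induced mock arrays. COL6A1, COL21A1, COL14A1 and COL27A1 did not pass against induced mock. COL27A1 lost its call without any 1 array other than mock not induced replicate 1, and with only the 4 arrays compared in the fit. COL21A1 lost it without knockdown replicate 1, with -0.43, and COL14A1 without knockdown replicate 2, with 0.42, or without either mock array not induced, and also without an intensity trend.

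Of 28 genes that modify, cleave or crosslink collagen, 5 rose and 2 fell (25.0% called, against 28.0% of all genes). LOXL3, a lysyl oxidase of crosslinking, rose by 0.74 (SE 0.14, limma adjusted p = 0.00386), and FKBP14, an ER prolyl isomerase that acts on collagen, rose by 0.74 (SE 0.09, limma adjusted p = 0.000493). LOX, the founding lysyl oxidase gene, had -0.54 (SE 0.14), and PCOLCE, which enhances procollagen cleavage, had 0.52 (SE 0.15) and did not pass against induced mock (0.33, limma adjusted p = 0.124). LOX and LOXL3, which encode enzymes of the same reaction, thus moved in opposite directions. LOX lost its call without either knockdown array or mock not induced replicate 2, and PCOLCE without knockdown replicate 2 or either mock array not induced.

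Of 21 other matrix genes, 3 fell, 0 rose and 18 did not pass against mock not induced. The share called was thus smaller than the 28.0% of all genes. The nidogen gene NID2 had 5.84 and 6.54 on the knockdown arrays, 7.36 and 7.42 on the induced mock arrays and 7.00 and 7.50 on the mock arrays not induced (log2 fold change -1.06, SE 0.22, limma adjusted p = 0.00652). The laminin genes LAMA5 and LAMB1 had -0.51 (SE 0.16) and -0.38 (SE 0.09). The related genes NID1 (-0.24), LAMC1 (0.07) and HSPG2 (-0.09) did not pass. Against induced mock 3 matrix genes rose and 5 fell (38.1% called, against 28.4% of all genes). NID2 and LAMB1 lost their call without knockdown replicate 1. LAMA5 lost it without any 1 array other than mock not induced replicate 1, and had -0.26 without replicate 2. It also lost it with quantile normalization, without an intensity trend and with only the 4 arrays compared in the fit.

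Of 16 metalloproteinase and inhibitor genes other than TIMP2, 2 rose and 2 fell (25.0% called, against 28.0% of all genes). Beside TIMP1 and TIMP3, the gelatinase gene MMP2 rose, with 5.61 and 5.80 on the knockdown arrays, 4.76 and 5.05 on the induced mock arrays and 4.92 and 4.77 on the mock arrays not induced (log2 fold change 0.86, SE 0.18, limma adjusted p = 0.00636). Among the mock arrays MMP2 lay above 5 only on induced replicate 2. It may thus be in the table through the knockdown arrays, so its adjusted p is not read as support for a rise. TIMP2 is known both to inhibit MMP2 and to help activate it. The protease gene ADAMTS1 fell by 0.51 (SE 0.09, limma adjusted p = 0.00287), and against induced mock it had -0.26 and did not pass (limma adjusted p = 0.0595). MMP14, which encodes the membrane-bound activator of MMP2, had -0.12 and did not pass. MMP2 lost its call without knockdown replicate 2, and its mock values lay mostly below 5, in the low part of the scale.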

How the data were processed

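RNA of 6 samples was labelled (2 µg of total RNA each) and hybridised to Affymetrix U133 Plus 2.0 arrays, per the labels' protocols. The deposited log2 values were made by the authors with affy and GCRMA, per the submitters' processing notes, whose versions those notes do not give. GCRMA subtracts a background modelled from probe sequence, so the lowest values depend on that model. The base 2 is what GCRMA returns and is not written in the file. No genome build is named in the files.

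Gene names came from the platform annotation, with symbols updated to RefSeq GRCh38.p14: 11719 had 1 symbol, 609 several and 680 none listed. They stood for 11584 genes. The set of highest mean was used for the 130 genes with more than 1, none of which is a member or list gene. A filter (above 4 on at least 2 arrays) removed 0 genes.

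limma 3.58.1 in R 4.3.3 fitted 1 model of 3 groups to all 6 arrays (eBayes with intensity trend, 3 residual and 6.73 prior degrees of freedom), two-sided, with Benjamini-Hochberg adjustment over all genes. Calls were made below an adjusted p of 0.05. SE, intervals and adjusted p come from that model. Precision is limited by the small number of arrays. The procedure was tested on simulated data.

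The members, lists and markers were chosen with earlier results of these data known. Named genes were the members, LIN28B and, from each list, up to 4 called genes of largest absolute change against mock not induced, or 2 where none was called; other genes give context and were picked after their values were seen. Alternatives changed the normalization, filter, variance model, arrays and probe set rule.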

Additional observations from a re-analysis of the deposited data

How the results depend on the processing

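The 6 members kept their sign against either mock group, and against all 4 mock arrays (-2.04 to 0.76), in every alternative that holds them; COL5A1 and COL4A3 are absent above 6 on at least 2 arrays. Of the 33 named list genes, 14 kept their call in every alternative run on them and 19 lost it in at least 1, with limma adjusted p between 0.0508 and 0.293 where 1 array was left out. None turned its sign. Leaving out 1 array gave 1664 to 3143 genes called for knockdown against mock not induced, against 3242, and 1702 to 3951 for knockdown against induced mock, against 3295. It gave 0 to 1 for induced against mock not induced, 22 to 40 list genes against mock not induced and 21 to 49 against induced mock. A lone array is then assumed to vary like the other groups. With a minimum of 2-fold the counts were 255 and 265 genes and 3 and 2 list genes, by construction fewer. With the replicate number as a block (replicate block) 3422, 3491 and 0 genes and 46 and 42 list genes were called, but deviations of same-numbered arrays correlated at 0.01 (knockdown and induced), -0.06 (knockdown and not induced) and 0.18 (induced and not induced), so the numbers were not taken as pairs. Centring the arrays turned the majority of all called genes against mock not induced, with 1838 higher and 1523 lower, and gave 18 list genes higher and 24 lower. Values near the bottom of the scale (COL4A3, COL5A1, MMP2) are the least certain in size.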
